A study of Mus musculus with 15 samples.

Results

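The aorta of AngII-infused and vehicle-infused mice was examined for 10 genes of the local renin-angiotensin system and of the regulators of G protein signalling (RGS proteins) that act downstream of its receptor. They were Agt, Ace, Agtr1a, Agtr1b, Agtrap, Atp6ap2 and Lnpep on the angiotensin side and Rgs2, Rgs4 and Rgs5 on the RGS side. The genes were chosen by name. A gene was read from a probe set that carried only its symbol, and where it had several, from that of highest mean signal in the 15 arrays. By that rule 9 of the 10 genes, with 10 probe sets, were analysed out of 12848 genes with 13403 probe sets of a single symbol, in a table of 15095 probe sets. Rgs5 had 2 such probe sets, and Lnpep, which encodes an aminopeptidase that binds angiotensin IV, was not analysed here.

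Mice received angiotensin II (AngII) or vehicle from an osmotic pump under the skin, and aortic mRNA from each mouse was hybridised to its own Affymetrix array. There were 8 AngII arrays, from mice infused with AngII at 1 µg/kg/min, and 7 vehicle arrays, from mice given physiological saline. All mice were 2 months old and were infused for 3 weeks. The sample labels give the strain as C57BL6 for both groups, the methods spell it in another way, and no genetic change is named.

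The renin-angiotensin system is a chain of proteolytic steps. Angiotensinogen, released mainly by the liver, is cleaved by renin to angiotensin I, and angiotensin-converting enzyme then removes a dipeptide to give AngII, which raises blood pressure mainly through the AT1 receptor on vascular smooth muscle. The AT1 receptor signals through G proteins of the Gq family to phospholipase C and calcium, and RGS proteins shorten such signals by speeding up GTP hydrolysis on the G protein.

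Array signals are given on the log2 scale as deposited, so a difference of 1 is a doubling of signal. The array medians lay between 7.16 and 7.28, and the correlation of any 2 arrays was 0.925 to 0.985, with AngII 8, AngII 5 and vehicle 1 least like the others. The submitters' own sample names fall into a series A, with 3 AngII and 2 vehicle arrays, and a series B, with 5 of each, and what the names stand for is not given in the sources used here. Contractile smooth muscle markers, which define the main cell of the aortic wall, were high in every array, with a mean log2 signal over 10 genes of 10.83 to 11.52 in AngII and 11.13 to 11.57 in vehicle arrays (exact permutation test of the difference, p = 0.0555). The mean of 10 adipocyte genes, among them Ucp1 and Plin1, ranged from 8.16 to 10.61 in AngII and from 7.59 to 10.69 in vehicle arrays (exact permutation test, p = 0.283). Macrophage markers averaged 8.73 ± 0.394 (SD, n = 8) in AngII and 8.03 ± 0.254 (SD, n = 7) in vehicle arrays, and 3 of 6 were higher in AngII by limma (exact permutation test of the means, p = 0.000932). Fibroblast markers averaged 11.46 ± 0.194 (SD, n = 8) in AngII and 11.05 ± 0.142 (SD, n = 7) in vehicle arrays, with 1 of 5 higher by limma (exact permutation p = 0.000777). In such bulk tissue, fewer cells of a type and less RNA per cell cannot be told apart.

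None of the 9 genes differed between AngII and vehicle aortas by limma at an adjusted p of 0.05, and none did by SAM (significance analysis of microarrays) at a q under 5% or by the methods' t-test after adjustment. Over the whole table limma called 805 of 15095 probe sets, 5.33%, so a count of 0 among 9 genes was near the background. Without the adjustment none of the 9 passed 0.05 by limma either, while 21.9% of all probe sets did. The log2 differences, AngII minus vehicle, lay between -0.23 for Rgs4 and 0.28 for Agtr1b, with a median of 0.03 beside -0.01 over all probe sets. Adjusted p-values from limma lay between 0.273 for Agtrap and 0.969 for Agtr1a. The AngII and vehicle arrays overlapped in all 9 genes, whereas 1.09% of all probe sets had groups that did not overlap.

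**Figure D1:**
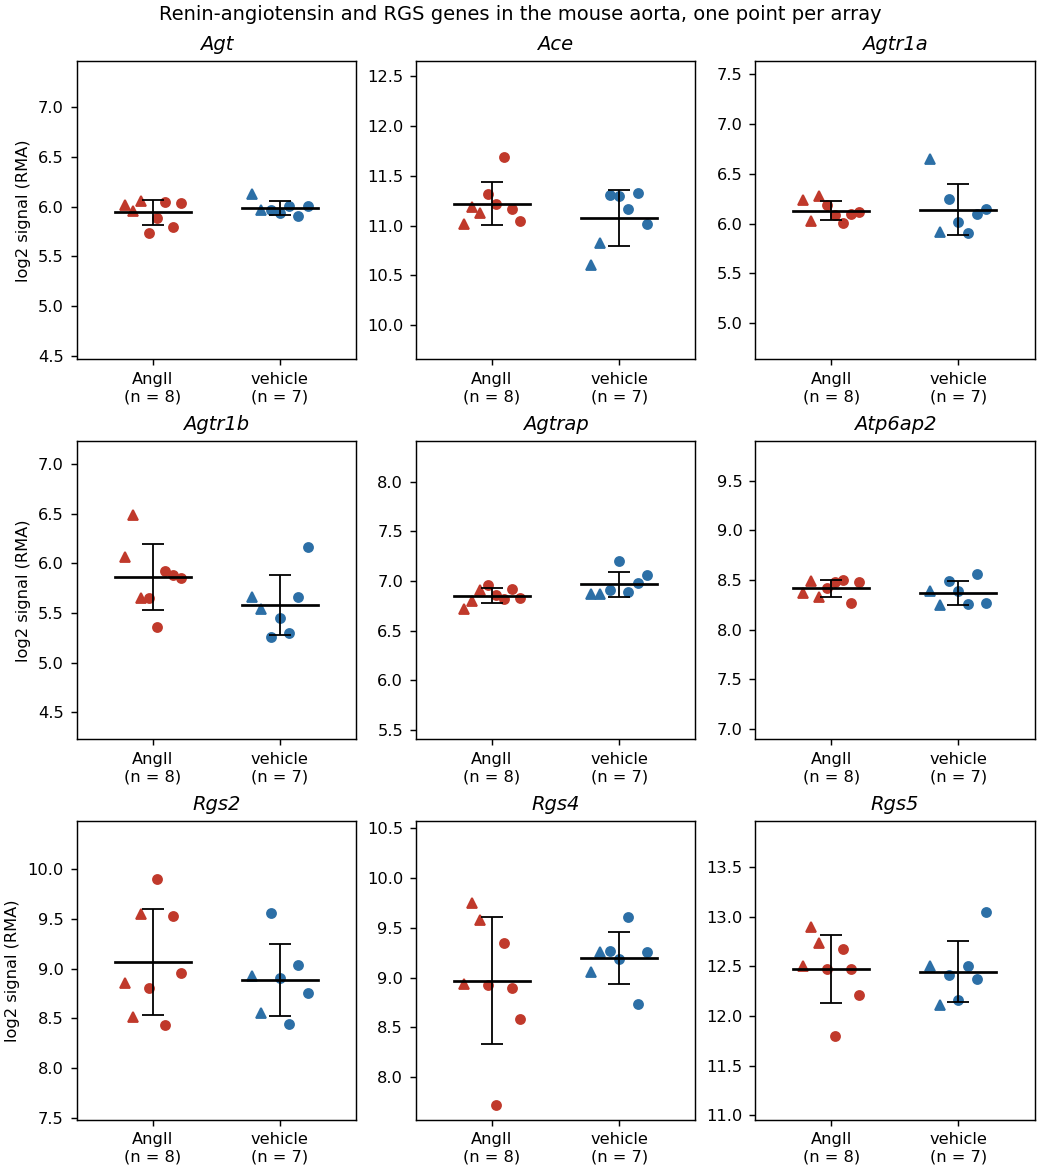
Log2 signal of the 9 genes, 1 point per array, with AngII arrays (n = 8) to the left and vehicle arrays (n = 7) to the right in each panel. Triangles are arrays of naming series A and circles those of series B, bars give the mean ± SD, and every panel spans the same number of log2 units. The groups overlap in every panel, and Rgs2 and Rgs4 spread most, Rgs4 reaching down to 7.72 in AngII 5.

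Agt, the gene of angiotensinogen, had a dim signal. It was at 5.74, 5.99 and 6.06 (lowest, median and highest) in AngII arrays and at 5.90, 5.97 and 6.12 in vehicle arrays. All of these values lay close to those of olfactory receptor probe sets, which served as a reference for dim signal because the genes are little expressed outside the nose, and whose 44 means had a median of 5.94 and an upper quartile of 6.40. The groups overlapped, although 3 AngII arrays were below every vehicle array. The log2 difference of Agt was -0.05 (SE 0.0590, 95% interval -0.17 to 0.08, adjusted p = 0.688 by limma). The interval held changes in both directions, so no direction of change could be given at this dim signal.

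Ace, which encodes the angiotensin-converting enzyme of the vessel wall, was well above the dim reference in every mouse. It was at 11.01, 11.18 and 11.69 in AngII arrays and at 10.61, 11.17 and 11.33 in vehicle arrays. AngII 6 was above every vehicle array, the vehicle arrays 1 and 2 were the lowest of all, and the rest overlapped. AngII 6 also had the highest mean of 6 endothelial markers, 9.58, and over all arrays that mean ranged from 8.03 to 9.58 in AngII and from 8.55 to 9.45 in vehicle arrays (exact permutation test, p = 0.969). The part of endothelial cells in the Ace values was not tested. The log2 difference was 0.14 (SE 0.119, 95% interval -0.11 to 0.39, adjusted p = 0.512 by limma), so a rise of up to 1.31-fold and a fall to 0.928 of the vehicle level both lay within the interval. Within naming series A the difference was 0.40 and within series B it was 0.06, and limma did not call the difference between them (adjusted p = 0.729).

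In mice the AT1 receptor is encoded by a pair of genes, Agtr1a and Agtr1b, and both probe sets were dim. Agtr1a, the form that carries most of the pressor response to AngII in mice, was at 6.01, 6.11 and 6.28 in AngII arrays and at 5.90, 6.10 and 6.64 in vehicle arrays. The AngII arrays lay wholly inside the vehicle range, whose top was vehicle 1. Its log2 difference was -0.01 (SE 0.0935, 95% interval -0.21 to 0.19, adjusted p = 0.969 by limma). Agtr1b, the second form of the receptor, was at 5.36, 5.87 and 6.48 in AngII arrays and at 5.26, 5.54 and 6.17 in vehicle arrays. AngII 2 was the highest array and vehicle 3 the lowest, and 7 of 8 AngII arrays lay within the vehicle range. The log2 difference of Agtr1b was 0.28 (SE 0.152, 95% interval -0.04 to 0.60), the largest of the 9 genes, with an adjusted p of 0.292 by limma and p = 0.113 in the exact permutation test. With mean signals of 6.13 and 5.73, both receptor probe sets lay below the upper quartile of the olfactory receptor probe sets, as Agt did, and 4 of the 9 genes (Ace, Rgs2, Rgs4 and Rgs5) lay above the highest of them, which was at 8.48.

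Agtrap and Atp6ap2, whose proteins bind the receptor and prorenin, varied little between mice. Agtrap encodes a small membrane protein that binds the tail of the AT1 receptor and promotes its uptake into the cell. It was at 6.72, 6.84 and 6.96 in AngII arrays and at 6.87, 6.91 and 7.20 in vehicle arrays. In 5 of 8 AngII arrays it was below every vehicle array, and vehicle 4 was the highest array. The log2 difference of Agtrap was -0.11 (SE 0.0593, 95% interval -0.24 to 0.01, adjusted p = 0.273 by limma). Its exact permutation p of 0.0430 (two-sided, unadjusted) was the lowest of the 9 genes tested, and it was not called by limma under any setting tried. Atp6ap2, the (pro)renin receptor and an accessory subunit of the vacuolar proton pump, was at 8.27, 8.45 and 8.50 in AngII arrays and at 8.25, 8.39 and 8.56 in vehicle arrays. Here too the AngII arrays lay inside the vehicle range, with a log2 difference of 0.05 (SE 0.0597, 95% interval -0.08 to 0.17, adjusted p = 0.699 by limma).

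The RGS genes varied much from mouse to mouse. After each group's mean was taken out, the SD over arrays was 0.501 for Rgs4, 0.462 for Rgs2 and 0.326 for Rgs5. These exceeded the SD of 96.9%, 95.9% and 90.5% of all probe sets, in that order. The SD of Agtr1b, 0.320, was larger than that of 90.0% of probe sets, and those of Agt, Agtrap and Atp6ap2, between 0.102 and 0.104, were larger than that of 12.1% to 13.1%.

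Rgs2 encodes a GTPase activator that prefers Gq, the G protein of the AT1 receptor, and mice that lack it are hypertensive. It was at 8.43, 8.91 and 9.90 in AngII arrays and at 8.44, 8.91 and 9.56 in vehicle arrays. AngII 5 was the highest array, AngII 6 the lowest, and the medians of the groups were the same to the second decimal. The log2 difference of Rgs2 was 0.18 (SE 0.216, 95% interval -0.27 to 0.64, adjusted p = 0.657 by limma). Changes between a fall to 0.828 and a rise to 1.56 times the vehicle level lay within that interval. The difference of Rgs2 was 0.07 without AngII 5, and close to 0 (0.0016, adjusted p = 0.997 by limma) with the adipocyte mean as a covariate.

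Rgs4, which acts on Gi and Gq proteins, was at 7.72, 8.93 and 9.75 in AngII arrays and at 8.73, 9.25 and 9.61 in vehicle arrays. The AngII arrays held both the highest value, in AngII 2, and the lowest, in AngII 5, and 2 of them were below every vehicle array. Its log2 difference was -0.23 (SE 0.234, 95% interval -0.72 to 0.27, adjusted p = 0.607 by limma). The difference was 0.26 within naming series A and -0.52 within series B, and the difference between the series was not called (adjusted p = 0.729 by limma). Without AngII 5, AngII 8 and vehicle 1, the 3 arrays least like the others, it was 0.02.

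Rgs5, a gene known for its expression in pericytes and arterial smooth muscle, was far above the dim reference in every array. It was at 11.80, 12.49 and 12.90 in AngII arrays and at 12.11, 12.41 and 13.05 in vehicle arrays. AngII 5 alone was below all vehicle arrays, and vehicle 7 was above all AngII arrays. The log2 difference was 0.03 (SE 0.155, 95% interval -0.30 to 0.35, adjusted p = 0.941 by limma). Its second probe set, at a mean signal of 8.19, gave 0.07 (SE 0.186, adjusted p = 0.870 by limma). Both Rgs5 probe sets followed the same arrays, with r = 0.928 over 15 arrays after the group means were removed. Within naming series A the difference of Rgs5 was 0.41, and within series B it was -0.17, opposite in sign (adjusted p of the difference between series = 0.729 by limma).

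**Figure D2:**
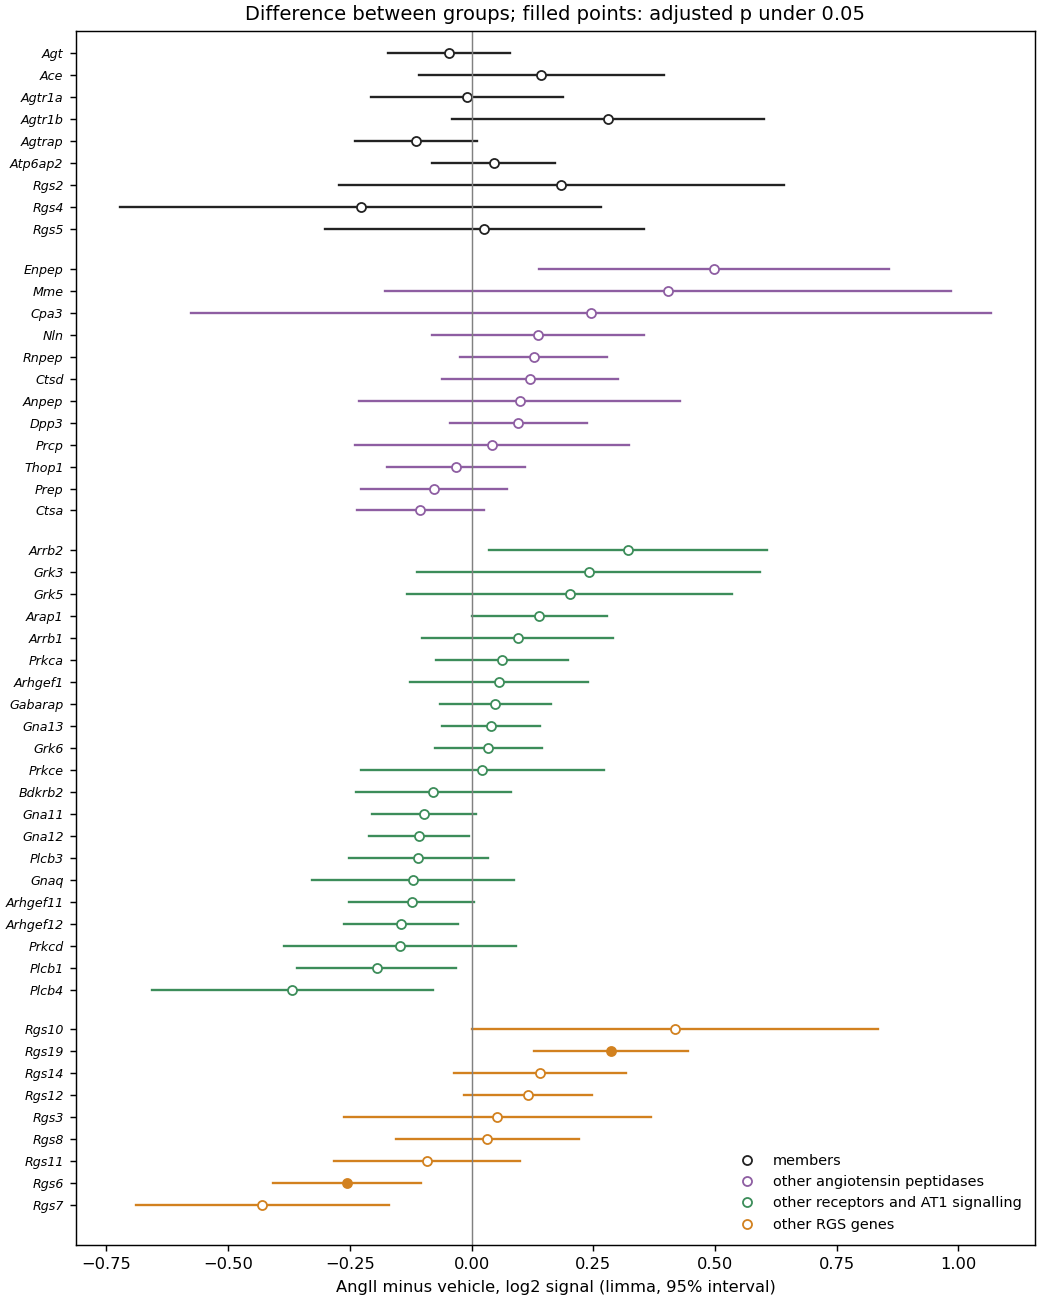
Log2 difference, AngII minus vehicle, for the 9 genes and for the other measured angiotensin peptidases, receptors and AT1 signalling genes, and RGS genes, with the 95% interval from limma. Filled points passed an adjusted p of 0.05 over all probe sets, which only Rgs19 (0.29) and Rgs6 (-0.26) did.

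Rgs2 and Rgs4 followed marker means of the tissue's cell types from array to array. In a limma fit with the group as a term, Rgs2 rose with the mean of the adipocyte markers, by 0.30 per log2 unit of that mean (SE 0.0809, adjusted p = 0.0271). AngII 5, AngII 7, AngII 3 and vehicle 3, the 4 arrays of highest Rgs2, from 9.53 to 9.90, all had an adipocyte mean over 10, between 10.28 and 10.61. Vehicle 1 had the highest adipocyte mean of all, 10.69, with Rgs2 at 8.92. AngII 1 also had an adipocyte mean over 10, at 10.12, with Rgs2 at 8.86. Slopes on the adipocyte mean were called for 8.04% of all probe sets, positive for 6.84% and negative for 1.2%, and Rgs2 was the only one of the 9 genes with a called slope on it. The call was lost when vehicle 3, vehicle 5, AngII 2, AngII 6 or AngII 7 was left out, with slopes of 0.27 to 0.31 and adjusted p-values of 0.0501 to 0.0801 by limma.

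Rgs4 rose with the mean of the contractile smooth muscle markers, by 1.85 per log2 unit (SE 0.452, adjusted p = 0.0205 by limma), where 8.59% of all probe sets had a called slope, positive for 5.07% and negative for 3.52%. It was the only one of the 9 genes with a called slope on that mean. AngII 5, with the lowest Rgs4 at 7.72, also had the lowest contractile mean at 10.83, and AngII 8, with the next lowest Rgs4 at 8.59, had the next lowest contractile mean at 10.95. Without AngII 5 the slope was 1.15 (adjusted p = 0.191 by limma), without AngII 2 it was 1.66 (adjusted p = 0.0906), and in series B alone it was 2.51 (adjusted p = 0.0658). With the contractile mean held fixed the difference of Rgs4 between AngII and vehicle was 0.17, opposite in sign to that without it, and neither was called. Slopes on the same mean were 1.02 for Rgs5 (SE 0.344, adjusted p = 0.0773 by limma), 0.93 for Agtr1b (SE 0.350, adjusted p = 0.112) and -1.45 for Rgs2 (SE 0.476, adjusted p = 0.0695). The slope of Rgs5 was called when vehicle 1 (1.32, adjusted p = 0.0404 by limma) or vehicle 2 (adjusted p = 0.0472) was left out, and that of Rgs2 when AngII 8 was (-1.78, adjusted p = 0.0361). Agt, Agtrap and Atp6ap2 had slopes between -0.11 and 0.02 on it and between -0.02 and 0.01 on the adipocyte mean, all with adjusted p over 0.7 by limma. The part of tissue make-up in these slopes was not tested.

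**Figure D3:**
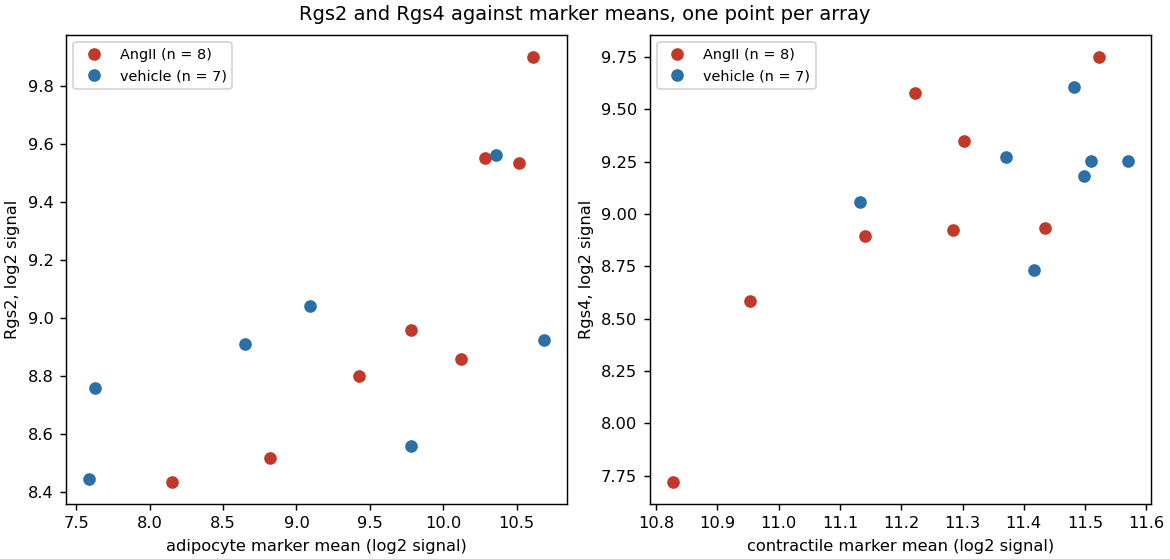
Left, Rgs2 log2 signal against the mean log2 signal of 10 adipocyte markers, and right, Rgs4 log2 signal against that of 10 contractile smooth muscle markers, 1 point per array, AngII (n = 8) and vehicle (n = 7). Rgs2 was over 9.5 only in arrays with an adipocyte mean over 10, and the array of lowest Rgs4, at 7.72, is also the array of lowest contractile mean, at 10.83.

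The 9 genes formed 36 pairs, whose correlation was taken over the 15 arrays after the group means were removed. No pair passed after adjustment over the 36 (permutation test with 100000 resamples), and 4 had an unadjusted p under 0.05. The closest was Rgs4 with Rgs5, at r = 0.742 (permutation p = 0.00243, adjusted p = 0.0567) and Spearman rho = 0.664 (permutation p = 0.00831, adjusted p = 0.299). It was 0.432 (permutation p = 0.139) once the 2 arrays most distant from the Rgs4 median, AngII 5 and AngII 8, were dropped. That step also narrows the range of Rgs4, so it cannot show whether the correlation rested on those arrays. With single arrays left out r was 0.546 to 0.868, and within series B, which holds AngII 5 and AngII 8, it was 0.700. The second Rgs5 probe set had r = 0.766 with Rgs4. Agtr1b with Rgs5 gave r = 0.709 (permutation p = 0.00315, adjusted p = 0.0567) and rho = 0.489 (permutation p = 0.0653, adjusted p = 0.399). Its r was 0.405 (permutation p = 0.172) once the 2 arrays most distant from the Agtr1b median were dropped, which again narrows the range. It was 0.580 to 0.795 with single arrays left out and 0.775 in series B. With single arrays left out, 2 pairs passed without AngII 3 and 1 pair without vehicle 2 or vehicle 7. Rgs2 ran against Rgs4 (r = -0.539, permutation p = 0.0348, adjusted p = 0.373, rho = -0.471) and against Agtr1b (r = -0.530, permutation p = 0.0414, adjusted p = 0.373, rho = -0.429). With the contractile mean also removed, r was 0.545 for Rgs4 with Rgs5 and -0.165 for Rgs2 with Rgs4.

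**Figure D4:**
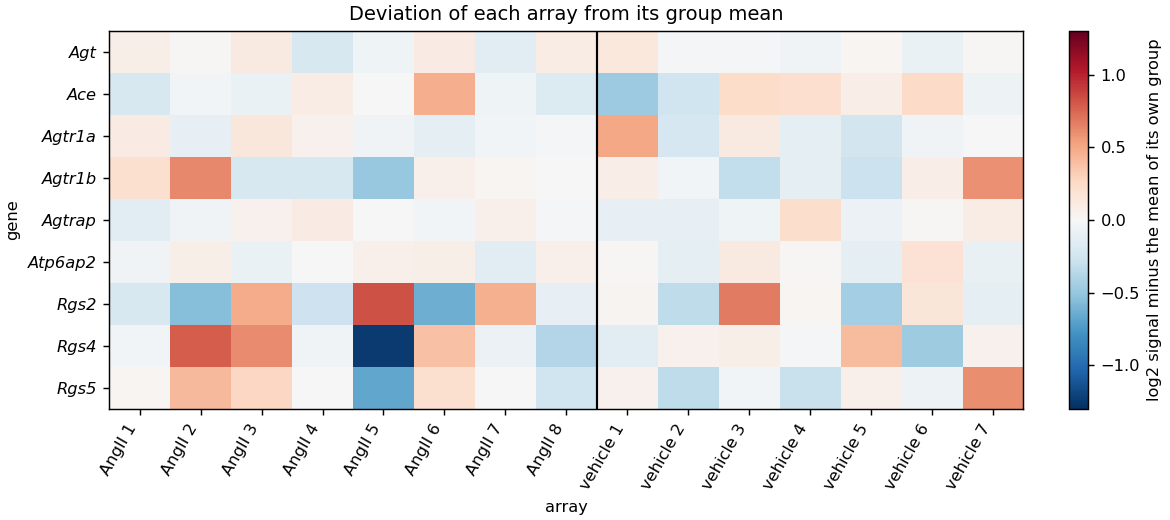
Deviation of each array from the mean of its own group, in log2 signal, for the 9 genes in rows, with the 8 AngII arrays left of the line and the 7 vehicle arrays right of it. AngII 5 stands out with Rgs2 above and Agtr1b, Rgs4 and Rgs5 below the AngII mean, and AngII 2 shows the opposite signs in these 4 genes.

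Rgs4 and Rgs5 are neighbours on mouse chromosome 1 in the RefSeq annotation of GRCm38.p6. Rgs5 lies at chr1:169655501-169695813 on the plus strand and Rgs4 at chr1:169741477-169747642 on the minus strand, so that the genes face each other across 45663 bases with no annotated coding gene between them. Rgs2 lies on the same chromosome at chr1:143999338-144004149, on the minus strand. The promoters of these 3 genes are shown because their signals varied most among the 9 genes. Each line holds the 250 bases before the RefSeq start site, 5′ to 3′ on the gene's own strand, at chr1:169747643-169747892 for Rgs4, chr1:169655251-169655500 for Rgs5 and chr1:144004150-144004399 for Rgs2. Capitals mark TGACG, the core of the cyclic AMP response element (CRE), on either strand, and TATAAA, the TATA box.
Rgs4: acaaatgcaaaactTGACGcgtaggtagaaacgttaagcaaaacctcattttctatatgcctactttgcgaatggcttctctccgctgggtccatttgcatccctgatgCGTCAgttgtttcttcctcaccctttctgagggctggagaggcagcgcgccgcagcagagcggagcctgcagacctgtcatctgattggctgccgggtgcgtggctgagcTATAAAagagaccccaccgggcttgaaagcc
Rgs5: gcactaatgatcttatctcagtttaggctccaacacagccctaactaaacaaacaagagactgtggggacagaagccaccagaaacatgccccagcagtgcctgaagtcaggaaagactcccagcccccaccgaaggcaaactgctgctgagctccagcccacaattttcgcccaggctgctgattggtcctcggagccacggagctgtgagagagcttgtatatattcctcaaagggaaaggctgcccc
Rgs2: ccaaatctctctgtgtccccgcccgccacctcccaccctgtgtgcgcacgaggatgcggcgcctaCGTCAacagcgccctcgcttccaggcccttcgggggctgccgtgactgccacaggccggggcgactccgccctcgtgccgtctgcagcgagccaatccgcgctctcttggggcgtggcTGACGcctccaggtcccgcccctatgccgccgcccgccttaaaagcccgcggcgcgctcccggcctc

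Windows from 250 bases before to 50 after the start site were searched on both strands for TGACG, the full CRE TGACGTCA, the CArG box of serum response factor, TGGGAA, the core of the RBPJ site through which Notch acts, and TATAAA. The full CRE contains TGACG, and a CArG box can contain TATAAA. Of the 10 listed genes, 9 had at least 1 such window, Agtr1a being the exception. TGACG occurred in 5 of the 9 genes (Agtrap, Atp6ap2, Lnpep, Rgs2 and Rgs4), against 23.0% of 27025 genes and 20.8% of their 32851 promoters in the table. Rgs2 held it at positions -185 and -67, the leftmost base of the match counted back from the start site, and Rgs4 at -236 and -141. TATAAA occurred in 4 of the 9 (Ace, Agt, Agtr1b and Rgs4), against 15.7% of genes and 13.6% of promoters. Its leftmost base was at -31 in Ace, Agtr1b and Rgs4 and at -30 in Agt. In Ace the match was on the strand opposite to the gene, and in Agt, Agtr1b and Rgs4 on the gene's own strand. The CArG box, the full CRE and TGGGAA were in none of the 9 genes, against 1.81%, 2.03% and 28.3% of genes. The Rgs5 window held none of the 5 motifs.

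Of 18 further angiotensin-processing peptidases 12 were measured, and none was called by limma at an adjusted p of 0.05. Enpep alone passed 0.05 without adjustment and was the 1 call by SAM at a q under 5%, against 21.9% and 12% of all probe sets, so neither count stood above the background. The median log2 difference of the 12 was 0.11, beside -0.01 for all probe sets, and 9 of the 12 were positive. Enpep, aminopeptidase A, which turns AngII into angiotensin III, was at 7.87, 8.41 and 9.18 in AngII arrays and at 7.78, 7.93 and 8.38 in vehicle arrays. AngII arrays 1 to 4 were above every vehicle array, and the others overlapped. Its log2 difference was 0.50 (SE 0.170, 95% interval 0.14 to 0.86, adjusted p = 0.0979 by limma, exact permutation p = 0.0196). In a fit blocked on the naming series the difference was 0.45 (adjusted p = 0.0249 by limma), and without the 3 arrays least like the others it was 0.69 (adjusted p = 0.0349). Leaving out AngII 6 alone gave 0.57 (adjusted p = 0.0435). Within naming series A it was 0.71 (adjusted p = 0.299 by limma) and within series B 0.32 (adjusted p = 0.148), neither called. Pericyte markers, whose cells are known to carry this enzyme, averaged 9.25 ± 0.196 (SD, n = 8) in AngII and 9.42 ± 0.0831 (SD, n = 7) in vehicle arrays. Of these markers 1 of 5 was lower in AngII by limma (exact permutation test of the means, p = 0.0614). Their part in the Enpep values was not tested.

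Mme (neprilysin), which cleaves angiotensin I to angiotensin-(1-7), differed by 0.40 (SE 0.275, adjusted p = 0.412 by limma). With the adipocyte mean as a covariate the difference of Mme was 0.11, and with the contractile mean it was 0.05. Cpa3, the carboxypeptidase of mast cells, spread from 7.41 to 8.57 in AngII arrays and from 6.40 to 9.24 in vehicle arrays, and its difference was 0.24 (SE 0.389, adjusted p = 0.756). The difference of Nln, the endopeptidase neurolysin, was 0.14 (SE 0.103, adjusted p = 0.466). The renin genes Ren1 and Ren2 and the chymase genes Cma1 and Mcpt4 were not analysed here.

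Among 27 listed further receptors and AT1 signalling genes 21 were measured, and none was called by limma, while 6 passed 0.05 without adjustment, against 21.9% of all probe sets. SAM at a q under 5% called 2, against 12% of all probe sets, so both counts were near the background. The 2 were Plcb4 and Arhgef12, the second of which was also called by limma without vehicle 1. Their median log2 difference was 0.02, with 11 positive and 10 negative. Plcb4, a phospholipase C driven by Gq, was at 9.66, 10.48 and 10.67 in AngII arrays and at 10.33, 10.78 and 10.94 in vehicle arrays. Lowest was AngII 5, and AngII 8 was also below every vehicle array. The log2 difference was -0.37 (SE 0.137, adjusted p = 0.126 by limma), and its q by SAM was 4.45%. It was -0.07 in series A and -0.51 in series B, and -0.11 (adjusted p = 0.683 by limma) with the contractile mean as a covariate, a mean that was also lowest in AngII 5 and AngII 8. The part of the contractile cells in the Plcb4 values was not tested. Arrb2, β-arrestin 2, which uncouples and internalises the AT1 receptor, was at 7.07, 7.25 and 8.11 in AngII arrays and at 6.89, 7.09 and 7.21 in vehicle arrays, with AngII 8 and AngII 5 highest. Its difference was 0.32 (SE 0.135, adjusted p = 0.173 by limma), and 0.12 both without the 3 arrays least like the others and with the contractile mean as a covariate. The receptor kinases Grk3 and Grk5 differed by 0.24 (SE 0.166, adjusted p = 0.420) and 0.20 (SE 0.158, adjusted p = 0.483). Agtr2, Mas1 and Plcb2 were not analysed here.

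In the main limma fit, unweighted, over all arrays and with the group as the only term, calls in these lists at an adjusted p of 0.05 fell only in the rest of the RGS family. Of 18 further RGS genes 9 were measured, and 1 was higher and 1 lower in AngII arrays by limma, against 2.42% and 2.91% of all probe sets, while 4 passed 0.05 without adjustment, against 21.9%. SAM at a q under 5% called 3, Rgs6, Rgs7 and Rgs19, against 12%. Rgs19, a small RGS protein that acts on Gi and Go, was at 7.91, 7.97 and 8.27 in AngII arrays and at 7.50, 7.66 and 8.02 in vehicle arrays. Only vehicle 1, at 8.02, lay within the AngII range. Its log2 difference was 0.29 (SE 0.0745, 95% interval 0.13 to 0.44, adjusted p = 0.0351 by limma). Macrophage markers, which move in the same direction, were at 8.34 to 9.49 in AngII arrays and 7.63 to 8.38 in vehicle arrays, AngII 8 having both the highest macrophage mean and the highest Rgs19. Their part in the difference was not tested.

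Rgs6, which acts on Gi and Go together with the β5 subunit, was at 5.49, 5.68 and 5.77 in AngII arrays and at 5.77, 5.88 and 6.30 in vehicle arrays. AngII and vehicle arrays met only at 5.77, and vehicle 1 was the highest. The value 5.77 was the same to the last deposited digit in 4 arrays, AngII 5, 6 and 7 and vehicle 3. Such repeats between arrays occurred in 4231 of 15095 probe sets, and in 4 or more arrays in 742 of them, and their part in the Rgs6 call was not tested. The difference was -0.26 (SE 0.0717, 95% interval -0.41 to -0.10, adjusted p = 0.0486 by limma), at a signal below the median of the olfactory receptor probe sets. Both calls were lost under other settings. With the contractile mean as a covariate the difference was 0.22 for Rgs19 (adjusted p = 0.232 by limma) and -0.32 for Rgs6 (adjusted p = 0.0684). By the methods' t-test the adjusted p was 0.0517 for Rgs19 and 0.0625 for Rgs6 (n = 8 and 7), while SAM gave q values of 0.772% and 0.973%. The Rgs19 call was lost (adjusted p of 0.0508 to 0.0812 by limma) when 1 of vehicle 2, 4, 5, 6 and 7 and AngII 1, 3 and 8 was left out. The Rgs6 call was lost (adjusted p of 0.0606 to 0.0951 by limma) when 1 of vehicle 2, 4, 5, 6 and 7 and AngII 1, 2, 3, 4, 5, 7 and 8 was left out. The difference of Rgs6 without vehicle 1 was -0.20 (adjusted p = 0.0445 by limma).

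Rgs7, of the same subfamily as Rgs6, was at 7.67, 8.31 and 8.73 in AngII arrays and at 8.44, 8.77 and 8.87 in vehicle arrays, with 6 of 8 AngII arrays below every vehicle array. Its log2 difference of -0.43 (SE 0.123, 95% interval -0.69 to -0.17) missed the threshold by limma (adjusted p = 0.0521). It passed in the fit blocked on the naming series (adjusted p = 0.0327 by limma) and by SAM (q = 1.22%). Rgs7 also passed by limma without vehicle 6, AngII 3, AngII 6 or AngII 7 (adjusted p of 0.0324 to 0.0481). Over all arrays it passed after further quantile normalization (adjusted p = 0.0436 by limma) and with arrays centred on their medians (adjusted p = 0.0466). So it did without probe sets of a mean below 6.33 (adjusted p = 0.0490 by limma) and with an intensity trend and robust prior (adjusted p = 0.0496). The difference of Rgs7 was -0.28 (adjusted p = 0.125 by limma) without the 3 arrays least like the others. With the contractile mean as a covariate it was -0.35 (adjusted p = 0.276), and the methods' t-test gave an adjusted p of 0.0865 (n = 8 and 7). Rgs10, known for high levels in leukocytes and microglia, was at 6.40, 7.26 and 7.81 in AngII arrays and at 6.21, 6.78 and 7.13 in vehicle arrays. AngII arrays 4 to 8 were above every vehicle array, and AngII arrays 1 to 3, all of series A, were inside the vehicle range. Over all arrays the difference of Rgs10 was 0.42 (SE 0.198, adjusted p = 0.228 by limma). In series B alone it was 0.60 (adjusted p = 0.0470 by limma), and with the series as a block 0.48 (adjusted p = 0.0253). It was 0.23 (adjusted p = 0.665) in series A, 0.15 (adjusted p = 0.678) without the 3 arrays least like the others and 0.19 (adjusted p = 0.747) with the contractile mean as a covariate, all by limma. The other 5 measured RGS genes, Rgs3, Rgs8, Rgs11, Rgs12 and Rgs14, differed by -0.09 to 0.14 and did not pass. The macrophage means given above also move with the groups beside Rgs10 and Arrb2, and their part was not tested. The other 9 listed RGS genes, Rgs1, Rgs9, Rgs13, Rgs16, Rgs17, Rgs18, Rgs20, Rgs21 and Rgs22, were not analysed here.

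**Figure D5:**
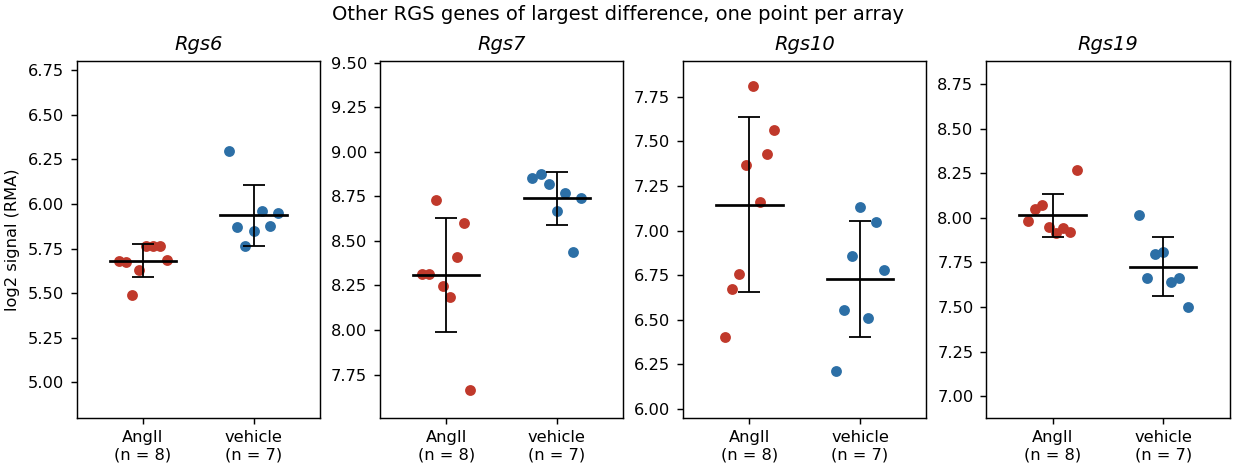
Log2 signal of Rgs6, Rgs7, Rgs10 and Rgs19, the 4 further RGS genes of largest difference, 1 point per array, AngII (n = 8) left of vehicle (n = 7), with the mean ± SD. Rgs19 has 1 vehicle array, at 8.02, among the AngII arrays, and Rgs10 splits the AngII arrays into 3 below and 5 above the vehicle maximum of 7.13.

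The genes whose array-to-array pattern came closest to each of the 9 were ranked by Pearson's r over the 15 arrays, after the group means were removed, among 12848 genes. Rgs4 was most like Mbnl2 (r = 0.958), which encodes a splicing regulator, Pi15 (r = 0.950), a secreted protease inhibitor, and Ccdc141 (r = 0.945). Of these only Pi15 was called, with a log2 difference of -0.74 (adjusted p = 0.0256 by limma). Rgs5 was most like Ldlrad2 (r = 0.907), AI597479 (r = 0.854) and Tpd52l1 (r = 0.829). Rgs2 was most like Galk2 (r = 0.899), Ube2b (r = 0.892) and Plet1 (r = 0.885). For Ace the nearest were Kcnt2 and Appl1 (both r = 0.922) and Tulp4 (r = 0.918), and for Agtr1a they were Nipsnap2 (r = 0.892), Fsd2 (r = 0.858) and Mlycd (r = 0.853). Agtr1b was nearest to Golt1a (r = 0.883), Lin28a (r = 0.845) and Rom1 (r = 0.837), and Agt to Ftsj3 (r = 0.843), Zbed4 (r = 0.817) and E2f4 (r = 0.813). Agtrap was nearest to Ppp2r5c (r = 0.847), Id1 (r = 0.834) and Pgrmc1 (r = 0.825), and Atp6ap2 to AI463170 (r = 0.817), Ppp6r1 (r = 0.805) and Pknox1 (r = 0.780). All these r values describe the same 15 arrays, share each array's tissue make-up and were picked as the highest among many genes.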

How the data were processed

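The authors extracted RNA from each aorta, hybridised it to Affymetrix arrays and used Expression Console to correct the background, normalize between arrays and, by robust multiarray analysis (RMA), reduce each probe set to 1 value per array, and the deposited values are log2 intensities. Labels and methods name different extraction kits, and no filter was applied. The 15095 probe sets were tested for AngII minus vehicle with limma (3.58.1, R 4.3.3), with Benjamini-Hochberg adjustment over all of them and a threshold of 0.05. The limma and t-test p-values set an effect against the spread between mice, 1 array each. SAM, run here with 100 permutations, and a two-tailed Student's t-test, the tools of the methods, were alternatives. Slopes on marker means were fitted in limma with the group. Exact permutation tests ran over 6435 relabellings, with 0.000155 as the smallest p. Pair correlations and their permutation tests used numpy 2.4.6, with ranks and adjustment from scipy 1.17.1. The genes, lists and markers were chosen with earlier results of these data known. Besides the 9 genes, those named are each list's called genes and its 4 largest differences, and the genes most alike in pattern, 3 ranked per gene. Gene positions and promoters came from RefSeq (GRCm38.p6). The same-numbered AngII and vehicle arrays had deviations correlated at r between -0.456 and 0.416, so the numbers were not taken as pairs. The number of arrays limits the precision.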

Additional observations from a re-analysis of the deposited data

Results flagged for a closer look

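Among 21 named genes, whose AngII and vehicle arrays make 42 groups, 5 groups held an array whose gap to its neighbour was larger than Dixon's test allows at 95%, where chance gives about 1 in 20. Ace was at 11.69 in AngII 6, against 11.01 to 11.32 in the other AngII arrays. Rgs5 in vehicle 7, at 13.05, stood above the other vehicle arrays, which were between 12.11 and 12.51. In AngII 3, Cpa3 was at 8.57, and the other AngII arrays were between 7.41 and 7.91. Vehicle 1 had Rgs6 at 6.30, with the other vehicle arrays between 5.77 and 5.96. Rgs19 was at 8.27 in AngII 8, and at 7.91 to 8.07 in the other AngII arrays. No named gene had an AngII effect that differed between naming series A and B by limma's interaction term, and the whole table gave 0 such calls. The causes of these values were not tested.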

How the results depend on the processing

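The 9 genes gave 0 calls under every alternative run. Over the whole table the 805 calls became 212 and 1812 by SAM at a q of 0 and under 5%, 496 by the methods' t-test, 373 and 8 in naming series B and A alone, 1272 with array weights, 531 without the 3 arrays that correlate least, 502 and 132 with the adipocyte and contractile means as covariates, and 344 to 1198 with single arrays left out (406 without vehicle 2, 477 without vehicle 4 or 7, 344 without vehicle 5, 488 without AngII 5 and 531 without AngII 7). With the replicate number as a block (replicate block, AngII 8 left out) 191 probe sets were called. In that block the further RGS genes had 0 calls and the further peptidases 1, Enpep (0.58, adjusted p = 0.0492 by limma); of 7 same-numbered pairs, 1 AngII array correlated best with its own number. The count of 2 calls among the further RGS genes, Rgs6 and Rgs19, became 0 by SAM at a q of 0, by the t-test, in series A and with either covariate, 1 in series B (Rgs10, with Rgs6 and Rgs19 both lost) and without the 3 arrays (Rgs19), 4 with the series as a block (with Rgs7 and Rgs10) and 0 to 3 with single arrays left out (the 1 call without vehicle 6 and that without AngII 3 being Rgs7). That count was 3, with Rgs7 added, after further quantile normalization and with an intensity trend and robust prior. With arrays centred on their medians it stayed at 2, Rgs7 being called and Rgs6 lost (adjusted p = 0.0568 by limma). Without probe sets of low mean, Rgs6 among them, the 2 calls were Rgs7 and Rgs19. Peptidase calls were 1 by SAM at a q under 5%, with the series block, with array weights and without the 3 arrays, and 0 to 1 with single arrays left out, and calls among receptors and AT1 signalling genes were 2 by SAM at a q under 5% and 0 to 1 with single arrays left out. Member slopes called numbered 0 to 1 for the adipocyte mean and 0 to 2 for the contractile mean with single arrays left out, and 0 for the contractile mean in series B. Pair correlations called numbered 0 to 2, with 2 without AngII 3 and 1 without vehicle 2 or vehicle 7. Signs turned only for genes that were not called. In series B alone Agtr1a was 0.017, Rgs5 -0.17 and Grk5 -0.031, and in series A alone Rgs4 was 0.26, Mme -0.18, Cpa3 -0.67, Nln -0.029 and Grk3 -0.042. Agtr1a was 0.066 with array weights and 0.086 without the 3 arrays, where Rgs4 was 0.021. Cpa3 was -0.12 with the adipocyte covariate, and with the contractile one Rgs2 was -0.13, Rgs4 0.17, Cpa3 -0.064 and Nln -0.00076. With single arrays left out Agtr1a ranged from -0.049 to 0.075 and Rgs5 from -0.034 to 0.13. The causes were not tested. A dim signal limits Agt, Agtr1a, Agtr1b and Rgs6.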
